A study of Mus musculus with 11 samples.

Results

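The early proximal tubule (EPT) of the fetal mouse kidney was profiled on 3 of the 11 arrays of the series, chosen by their label. The EPT pools came from wild-type CD-1 fetuses at E15.5 (Theiler stage 23), and the tissue was cut from stained sections of frozen kidney by laser capture microdissection. They were set against 8 arrays of the same strain, genotype and stage: 2 arrays held cortical collecting duct (CCD), 3 held urothelium (URO), which lines the ureter, and 3 held the smooth muscle around it (ureteral smooth muscle, USM). CD-1 is an outbred stock, the sex was not known, and none of the groups was treated. Each sample was a pool of about 50 sections from 5 kidneys whose RNA was amplified in 2 rounds, so a value describes a pool of captured tissue and not a sorted cell type. The labels do not say whether 2 pools could come from the same kidneys or fetuses. The p-values therefore reflect how far these pools spread, and that spread may be technical. The series profiled parts of the kidney separately, and here EPT was described by the order of its own signals and by its difference from the equally weighted mean of CCD, USM and URO.

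The proximal tubule is the segment of the nephron next to the glomerulus, and in the adult it takes back most filtered sugar, amino acids, phosphate, bicarbonate and protein. Its cells carry a brush border with transporters and peptidases, an apical endocytic apparatus built on megalin and cubilin, and basolateral carriers that pass solutes to the blood or take up organic ions for secretion. They also make glucose, oxidise fatty acids and metabolise amino acids, drugs and vitamin D. In the fetal kidney nephrons form continuously at the periphery, so tubules of different maturity lie in a single section.

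The 18193 named genes were each read from 1 probe set and given as log2(signal + 55), a scale that understates how much dim genes differ. The 3 EPT arrays correlated with each other at 0.888 to 0.933 across the genes tested, and with the other arrays at 0.787 to 0.847 (CCD), 0.713 to 0.767 (USM) and 0.748 to 0.83 (URO). Genes are not independent replicates, so these values are descriptive. The median signal was 374, 252 and 348 in EPT1, EPT2 and EPT3, and 247 to 401 in the other arrays. The 3' to 5' ratio of the Gapdh control, a sign of RNA integrity, was 10.46, 17.48 and 18.15 in EPT1, EPT2 and EPT3 and 6.79 to 55.28 in the others. A date-like part of the sample names, of unstated meaning, splits the arrays into label batches. EPT1 shared its batch with CCD1 and USM2, EPT2 and EPT3 shared theirs with CCD2, and URO shared none with EPT. EPT2, EPT3 and CCD2 also had a low actin 3' control signal, at 7167 to 10240, compared with 24830 to 75050 on the other 8 arrays. The part of batch in the results was tested by a fit with label batch as a block, called the batch-blocked fit here, and its values are given for the genes described here whose call it ended.

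The tubule label was checked on 4 genes known from the proximal tubule. Acsm2, a mitochondrial medium-chain acyl-CoA synthetase, was at 15.68, 15.97 and 15.17 in EPT, against 8.19 and 10.25 in CCD, 7.53, 7.76 and 5.96 in USM and 8.32, 6.42 and 11.58 in URO. Slc27a2, which activates very long chain fatty acids, was at 15.00, 16.06 and 16.12 in EPT, against 8.41 and 11.05 in CCD, 7.53, 6.10 and 7.55 in USM and 11.10, 6.20 and 11.17 in URO. For both genes the lowest EPT array lay above the highest of the 8 others, and CCD2 and URO3 were the brighter of their groups. The log2 fold change over the other compartments was 7.25 ± 0.83 for Acsm2 and 6.97 ± 0.91 for Slc27a2 (SE, n = 3 against 8 arrays, limma adjusted p = 7.21e-05 and 0.000191). Slc7a9, the light subunit of the cystine and dibasic amino acid transporter, was higher by 6.56 ± 0.56 (adjusted p = 9.01e-06). Cubn, the endocytic receptor cubilin, was higher by 5.05 ± 0.40 (adjusted p = 5.08e-06), and neither gene's EPT arrays overlapped with the others. Within batches the differences of the 4 genes were 4.62 to 5.33 in EPT2 and EPT3 over CCD2. They were 5.62 to 7.74 in EPT1 over the mean of CCD1 and USM2. Their sign follows from the arrays not overlapping, so it is not a separate check.

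**Figure D1:**
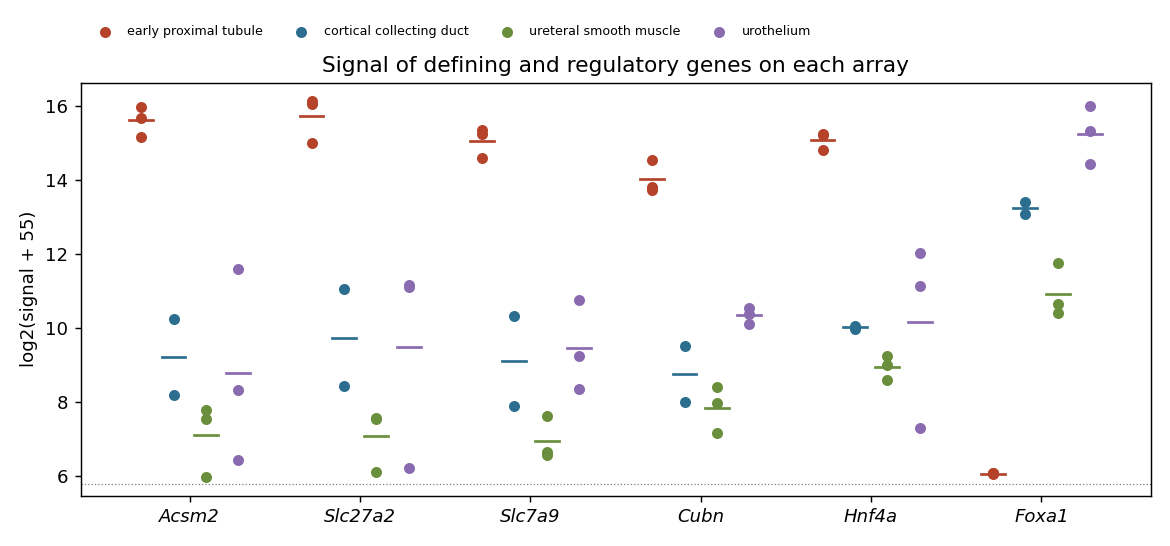
Signal of 6 genes on each array, as log2(signal + 55) on the vertical axis, with a point per array, a bar at each compartment's mean and a dotted line at a signal of 0. The EPT points of Acsm2, Slc27a2, Slc7a9, Cubn and Hnf4a lie above all points of CCD, USM and URO, and those of Foxa1 lie between 6.03 and 6.08, near the floor.

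Of the 13573 genes tested, 1293 (9.53%) were higher and 869 (6.4%) lower in EPT, at a limma adjusted p under 0.05 and a log2 fold change of 1 or more in size. All 3 EPT arrays lay above all 8 others for 1149 genes (8.47%) and below them for 544 (4.01%), whether called or not. Among called genes this held for 953 of the 1293 higher and 394 of the 869 lower. For most lower genes at least 1 EPT array thus overlapped with another compartment. The increases were larger: 235 genes were higher by a log2 fold change over 3 and 53 by over 5, whereas 66 were lower by more than 3 and 3 by more than 5. Over all genes tested the median was 0.05. The compartment with the next highest mean was CCD for 660 of the 1293 higher genes, URO for 442 and USM for 191. In the batch-blocked fit 277 genes were higher and 135 lower, of which 271 and 131 were among those above. The median standard error was 0.58 in that fit, against 0.39 without the block, and the median absolute difference of the genes called above was 1.74 against 1.79. Without EPT2 the counts were 716 higher and 503 lower, and without EPT3 they were 809 and 579. When all probe sets of a gene were averaged, the difference was more than 1.5 times smaller for 31 of 136 called genes named here, among them Acsm2 (4.58), Hnf4a (2.77), Kl (2.32), Fgfr4 (1.85), Spp2 (2.84), Cldn2 (3.17) and Car3 (-2.60). In bulk tissue, fewer cells of a type and less RNA per cell cannot be told apart.

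Genes with the largest differences were carriers, brush border proteins and enzymes. Ugt2b5, a glucuronosyltransferase, was at 13.84, 14.75 and 13.40 in EPT, against 7.05 and 9.85 in CCD and 5.87 to 6.14 over the 6 USM and URO arrays. The EPT arrays stood clear of all others, CCD2 was the next brightest, and the difference was 7.20 ± 0.49 (adjusted p = 2.35e-06). Hdc, histidine decarboxylase, was at 15.68, 15.63 and 15.63 in EPT, against 10.28 and 12.05 in CCD, 6.19 to 8.18 in USM and 6.16 to 10.64 in URO, a difference of 6.76 ± 0.76. The EPT arrays of Hdc lay within 0.05 of each other while its URO arrays ranged over more than 4 units. Aadac, an esterase of the endoplasmic reticulum, was higher by 6.02 ± 0.53, and Cyp2d26, a cytochrome P450, by 6.52 ± 0.70. Some of these genes have near-identical family copies (the Ugt2b, Cyp2d and Slc22 families), and whether their probe sets read such copies was not tested.

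**Figure D2:**
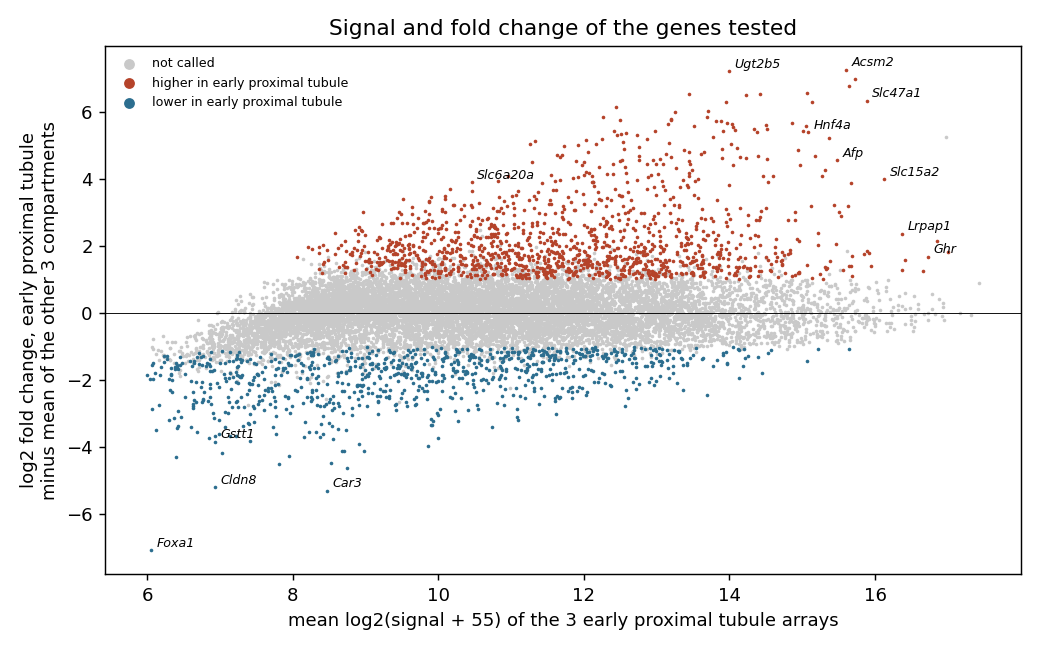
Each point is a gene tested, placed by the mean log2(signal + 55) of the 3 EPT arrays (horizontal) and the log2 fold change of EPT over the mean of the other 3 compartments (vertical), with 1293 genes called higher in red and 869 called lower in blue. Acsm2, Ugt2b5 and Slc47a1 combine high signal with differences over 6, while Foxa1 lies at the floor with -7.08.

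The order of signals within EPT was led mostly by genes of general cell function. The 10 highest were Hmgcs1, a cholesterol synthesis enzyme, Eef1a1, Rps7, Ivns1abp, Xist, Tpt1, Rpl22, Hspa8, Rpl13a and Vdac1. Probe sets differ in affinity, so this is an order of signals and not of transcript amounts. Among these 10, Ivns1abp was called, although Hmgcs1 passed with the mean of its probe sets (1.04, adjusted p = 0.0361) and Hspa8 from a probe set without an x, s or a suffix (2.25, 0.009). Ivns1abp was higher, at 1.82 ± 0.32, with 16.96, 16.56 and 17.47 in EPT, against 16.58 and 16.10 in CCD and 13.75 to 15.28 in USM and URO. Its EPT and CCD arrays overlapped, and the batch-blocked fit lost the call (adjusted p = 0.144). Xist, the RNA that coats the inactive X chromosome, was at 17.11, 16.47 and 17.33 in EPT. In the other compartments Xist was high on 3 arrays, at 16.09 (CCD2), 16.54 (USM3) and 16.63 (URO2), and 7.83 to 9.56 on the remaining 5 (difference 5.25 ± 1.97, adjusted p = 0.0888). Without USM3 that difference was 6.16 (adjusted p = 0.0227), and without URO2 it was 6.15 (0.0215). Xist was thus high on all 3 EPT arrays and uneven within CCD, USM and URO. The sex of the pools was not known, and its part in the differences between EPT and the others was not tested.

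The 100 highest signals had means of 15.73 to 17.43. They included 17 ribosomal protein genes, 13 genes called higher in EPT (13%) and 0 called lower. The share called higher was 9.53% over all genes tested and 18.13% in the brightest of 10 equal signal bins. The 100 highest signals were thus not richer in higher genes than that bin. Transport and receptor genes stood among these 100. Ghr, the growth hormone receptor, ranked 15 of 18193, with 16.83, 16.55 and 16.82 in EPT, against 15.05 and 15.39 in CCD, 14.89 to 15.17 in USM and 14.74 to 14.98 in URO. The EPT arrays of Ghr lay above all others, and its difference was 1.68 ± 0.28 (adjusted p = 0.0011). Lrpap1, the chaperone of megalin, ranked 36 and was at 16.41, 16.48 and 16.22 in EPT, against 13.59 to 14.29 on the 8 others, a difference of 2.36 ± 0.28 (adjusted p = 8.48e-05).

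Slc15a2, the peptide transporter PEPT2, ranked 54 and was higher by 3.99 ± 0.48. Slc47a1, the organic cation extruder MATE1, ranked 79 and Slc27a2 101. The other genes among the 12 brightest that were higher with EPT apart from all other arrays were Erdr1, Idh1 (cytosolic isocitrate dehydrogenase), Ldhb, Dvl1 (a Wnt pathway adaptor), Agrn (agrin), Sephs2 (selenophosphate synthesis) and Clk1 (a splicing kinase), at ranks 11 to 113 and differences of 1.40 to 2.14. In the batch-blocked fit the call was lost for Ghr (adjusted p = 0.114), Slc15a2 (0.0559), Idh1 (0.0969), Dvl1 (0.0667), Sephs2 (0.0887), Erdr1 (0.213), Ldhb (0.144), Agrn (0.264) and Clk1 (0.425, with the difference at 0.92). Without EPT3 Ldhb was at an adjusted p of 0.0653. From a probe set of Erdr1 without an x, s or a suffix, the types that can read related transcripts, the difference was 0.71 (adjusted p = 0.302).

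The signal order was cut into 10 equal bins, and the share of tested genes called higher declined towards the dim bins. It was 18.13% in the brightest bin, 16.44% and 11.54% in the next pair, 5.028% in bin 6 and 0% in the 3 dimmest. The share called lower was 2.692% in the brightest bin and 47.97% in the dimmest, where 123 of 1819 genes were tested. The EPT mean that ordered the bins is also part of the difference, so the decline is partly built in, at the bright end too. A gene dim in EPT passed the filter only through other compartments, so the shares at the dim end also follow from the filter. All these shares are given as a description.

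Amino acid and peptide transporters were higher together: of 18 tested members, 13 were higher and 0 lower, with a median of 3.80. The batch-blocked count was 8. Over all genes tested 9.53% were higher and 6.4% lower, and these shares belong beside each list count that follows. In the batch-blocked fit 277 of the 13573 genes were higher and 135 lower. The members of this and the other lists were chosen with earlier results of these data known. No member of the amino acid, sugar, salt, organic ion, brush border, endocytosis and gluconeogenesis lists was lower at an unadjusted limma p under 0.05. Slc3a1, the heavy subunit that pairs with Slc7a9, was at 12.48, 13.68 and 13.22 in EPT, against 9.03 and 9.08 in CCD, 7.97 to 8.24 in USM and 7.27 to 8.96 in URO, and was higher by 4.74 ± 0.39 (adjusted p = 7.37e-06). Both subunits of the cystine transporter therefore had EPT arrays clear of the rest. Slc6a13, a GABA and betaine carrier, was higher by 5.17 ± 0.43, Slc6a18, a neutral amino acid carrier of the brush border, by 4.90 ± 0.47, and Slc6a20a, an imino acid carrier, by 3.90 ± 0.36. The brightest members not called were Slc16a10, an aromatic amino acid carrier (0.94), Slc3a2, the heavy subunit of many basolateral exchangers (0.77), and the taurine carrier Slc6a6 (-0.11).

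Carriers of sugar, phosphate, sulfate and carboxylates gave 19 of 20 tested members higher and 0 lower, with a median of 3.74, and 9 higher in the batch-blocked fit. Slc34a1, the apical sodium phosphate cotransporter, was at 13.16, 13.96 and 12.998 in EPT, against 8.33 and 9.58 in CCD, 6.33 to 8.61 in USM and 8.43 to 9.59 in URO (4.86 ± 0.48, adjusted p = 2.55e-05). Its EPT arrays were more than 3 units above the highest other array. Slc5a2, the sodium glucose cotransporter SGLT2, was at 11.92, 13.22 and 12.66 in EPT, against 8.80 and 9.503 in CCD, 8.05 to 8.85 in USM and 7.97 to 9.26 in URO (3.89 ± 0.39). From a probe set without an x, s or a suffix Slc5a2 was higher by 1.65 (adjusted p = 0.0296). Slc2a2, the basolateral glucose carrier GLUT2, was higher by 6.49 ± 0.87 (adjusted p = 0.00023), with 14.25, 14.67 and 13.75 in EPT, against 6.37 and 10.39 in CCD, 6.15 to 6.36 in USM and 6.10 to 10.84 in URO. CCD2, URO1 and URO3 were raised within their groups for Slc2a2, and the batch-blocked fit gave 5.54 with an adjusted p of 0.0743.

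In the same list Slc17a1, a phosphate and urate carrier, was higher by 6.29 ± 0.45 and the vitamin C transporter Slc23a1 by 5.44 ± 0.36. The sodium sulfate cotransporter Slc13a1 was higher by 5.99 ± 0.49, although its probe sets disagreed: from a probe set without an x, s or a suffix it was 1.23 (adjusted p = 0.0745). Slc20a2, a housekeeping phosphate carrier, was not called (0.40). Genes with a symbol starting in Slc, a family counted after its values were seen, gave 88 of 275 tested genes higher (32%) and 12 lower (4.364%), and 13 of the 50 highest differences.

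The genes of sodium, water and bicarbonate transport gave 15 of 19 tested members higher and 0 lower (median 2.94, 8 in the batch-blocked fit). Fxyd2, the gamma subunit that regulates the sodium pump, was at 13.38, 14.05 and 14.47 in EPT, against 8.55 and 9.08 in CCD, 6.29 to 8.16 in USM and 6.63 to 9.96 in URO (5.65 ± 0.64). Its EPT arrays lay above all others. Cldn2, the claudin that forms paracellular pores for cations and water, was higher by 5.49 ± 0.59 (adjusted p = 3.99e-05), the potassium channel Kcnj15 by 4.67 ± 0.49 and the carbonic anhydrase Car12 by 3.605 ± 0.39. Slc9a3r1, the scaffold NHERF1 that anchors apical carriers, was higher by 3.19 ± 0.33, and by 1.76 (adjusted p = 0.00565) from a probe set without an x, s or a suffix. Slc4a4, which exports bicarbonate to the blood, was at 13.89, 14.47 and 13.60 in EPT, against 9.84 to 12.35 on the others (2.94 ± 0.40). The chloride exchanger Clcn5 of endosomes was not called at 1.63 (adjusted p = 0.0623), nor were Aqp11 at 1.23 (0.0538) and Car15 at 0.82. The EPT arrays of Clcn5 lay above all others. Clcn5 passed without USM1 (adjusted p = 0.0378), without USM3 (0.0186) and with the mean of its probe sets (1.25, 0.0175), among other settings. Aqp11 passed without CCD1 (0.0242), without URO2 (0.0467) and with the mean of its probe sets (1.62, 0.00902). From a probe set without an x, s or a suffix Aqp11 was higher by 1.75 (0.0238), and it passed under other settings too.

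Organic ion carriers and efflux pumps gave 15 of 21 tested members higher and 0 lower (median 2.26, 10 in the batch-blocked fit). Slc22a6, the organic anion carrier OAT1 of the basolateral side, was at 11.12, 12.21 and 13.15 in EPT, against 6.61 and 6.13 in CCD, 6.50 to 8.47 in USM and 6.51 to 7.78 in URO (5.05 ± 0.51). Slc22a2, the organic cation carrier OCT2, was higher by 5.31 ± 0.44, and Slc47a1, which passes cations on to the lumen, by 6.33 ± 0.51 (adjusted p = 6.76e-06). Slc47a1 was at 15.67, 16.11 and 15.88 in EPT, against 8.40 and 10.84 in CCD, 5.93 to 7.76 in USM and 12.10 to 12.88 in URO. The 3 URO arrays formed a level of their own between EPT and the rest for Slc47a1. The anion carriers Slc22a22 and Slc22a19 were higher by 6.13 ± 0.37 and 5.32 ± 0.52, and Abcc4 (1.04), Slc22a18 (0.17) and Slc22a7 (0.81) were not called.

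**Figure D3:**
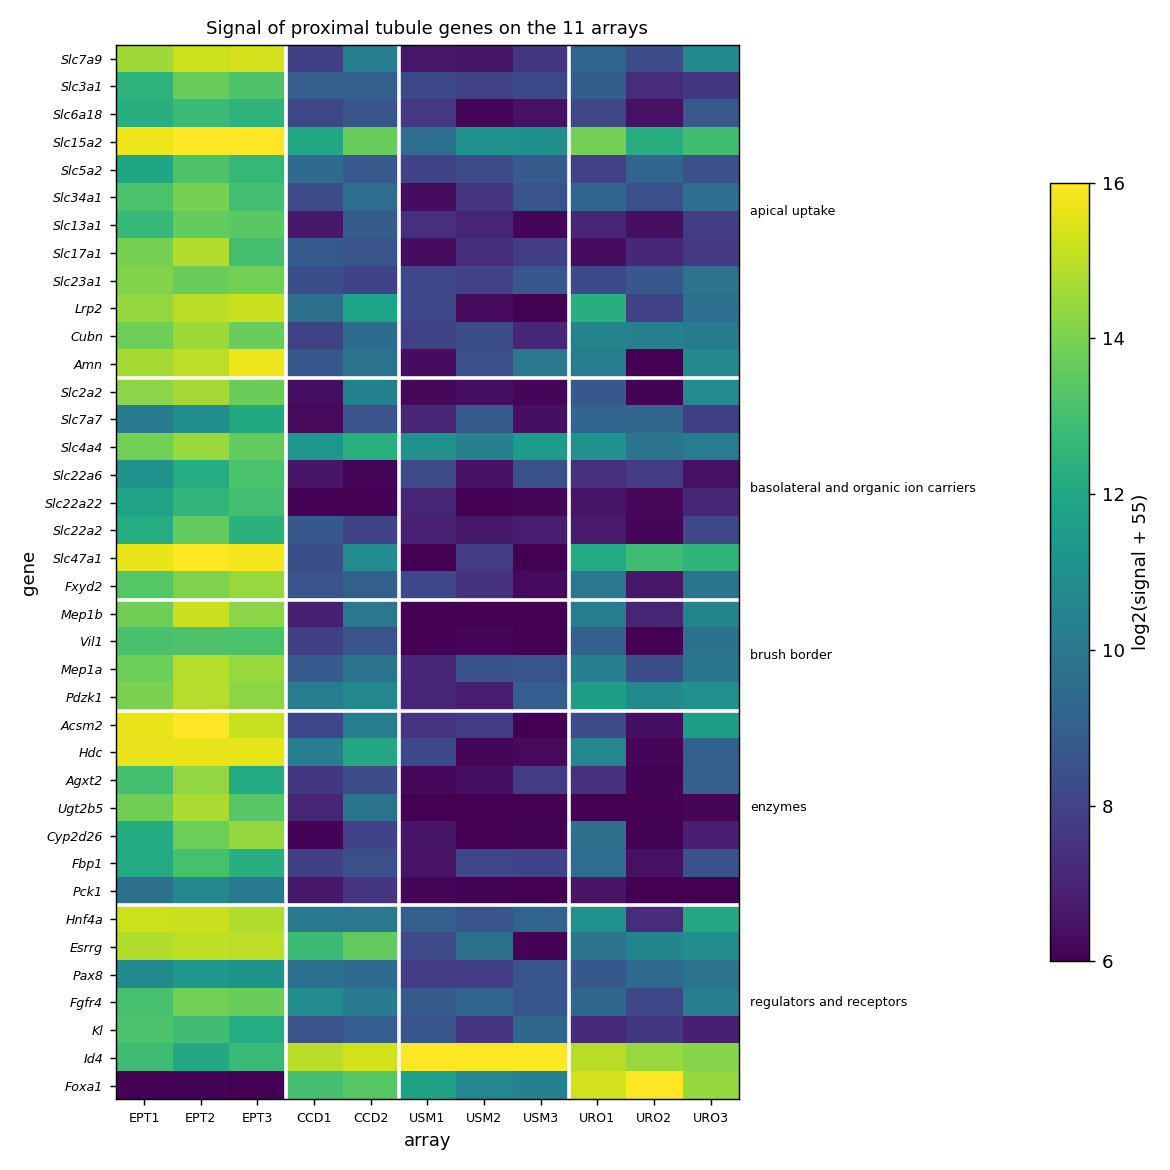
Log2(signal + 55) of 38 genes (rows, grouped by role) on the 11 arrays (columns), drawn from 6 (dark) to 16 (bright), with white lines between compartments and roles. The EPT columns are bright for the transport, brush border and enzyme genes, CCD2, URO1 and URO3 carry intermediate signal for several of them, and Id4 and Foxa1 are dimmer in EPT.

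The brush border gave 16 of 19 tested members higher and 0 lower (median 2.92, 7 in the batch-blocked fit). Vil1, the actin bundler villin of microvilli, was at 13.11, 13.20 and 13.16 in EPT, against 7.91 and 8.56 in CCD, 5.97 to 6.13 in USM and 5.94 to 9.72 in URO (5.65 ± 0.60). The USM arrays of Vil1 lay at the floor. The meprin subunits Mep1a and Mep1b, which form a peptidase of the brush border, were higher by 5.39 ± 0.49 and 6.53 ± 0.73. Cdhr2, an adhesion protein between microvillus tips, was higher by 5.18 ± 0.49, and the scaffold Pdzk1 by 4.68 ± 0.45. Eps8, an actin capper, was not called at 1.19, although it passed without EPT3 (1.75, adjusted p = 0.0215). Alpl, tissue alkaline phosphatase, was not called (0.26). Ace, the angiotensin converting enzyme, was not called at 0.18, but from a probe set without an x, s or a suffix it was higher by 2.56 (adjusted p = 0.000183).

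Apical endocytosis gave 9 of 15 tested members higher and 0 lower, with a median of 1.67. The count was 4 in the batch-blocked fit and 5 without EPT2. Lrp2, megalin, was at 14.40, 14.96 and 15.21 in EPT, against 9.70 and 11.81 in CCD, 6.05 to 8.12 in USM and 7.93 to 12.29 in URO (5.68 ± 0.76). Its lowest EPT array was about 2 units above the brightest other array, URO1. Amn, which brings cubilin to the surface, was at 14.67, 15.00 and 15.73 in EPT, against 8.75 and 9.85 in CCD, 6.34 to 10.02 in USM and 6.03 to 10.71 in URO (6.29 ± 0.90), with a batch-blocked adjusted p of 0.0887. Megalin, cubilin, Amn and the chaperone Lrpap1 were thus called together, with EPT arrays apart from the rest. Folr1, a folate receptor taken up with megalin, was higher by 2.62 ± 0.35. The lysosomal protease Ctsb (0.51) and the recycling GTPase Rab11a (0.76) ranked 305 and 535 in EPT and were not called.

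Fatty acid genes were divided: of 30 tested members 12 were higher, 1 was lower and 17 were not called (median 0.74, 6 higher in the batch-blocked fit). Besides Acsm2 and Slc27a2, the higher members included Hao2, a peroxisomal hydroxy acid oxidase (5.54 ± 0.71), the peroxisomal thiolase Acaa1b (4.68 ± 0.41), the acyl-CoA synthetase Acsm1 (4.52 ± 0.44) and Fabp3, a fatty acid binding protein (2.69 ± 0.35). Acaa1b was at 15.00, 15.55 and 14.99 in EPT, against 10.10 and 10.55 in CCD, 8.47 to 10.63 in USM and 11.46 to 11.73 in URO. Its mitochondrial counterpart Acaa2 moved the other way, with 11.06, 10.68 and 11.34 in EPT, against 11.99 and 12.42 in CCD, 13.85 to 14.71 in USM and 13.32 to 14.47 in URO (-2.44 ± 0.34, adjusted p = 0.000343). For each of these 2 thiolases the EPT arrays lay apart from all others, and the batch-blocked adjusted p of Acaa2 was 0.0734. Hadh, a mitochondrial dehydrogenase of the same pathway, ranked 30 in EPT and differed by 0.14 ± 0.32. Hadhb (0.35) and catalase, Cat (0.81), were not called, and Cat passed after quantile normalization (adjusted p = 0.0357).

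Gluconeogenesis and related sugar use gave 7 of 9 tested members higher and 0 lower (median 2.65, 2 in the batch-blocked fit). Fbp1, fructose bisphosphatase, was at 12.12, 13.09 and 12.28 in EPT, against 7.89 and 8.45 in CCD, 6.51 to 8.10 in USM and 6.45 to 9.58 in URO (4.54 ± 0.57). Pck1, the cytosolic PEP carboxykinase, was at 9.71, 10.65 and 10.14 in EPT, against 6.68 and 7.59 in CCD and 5.99 to 6.53 in USM and URO (3.70 ± 0.33, adjusted p = 1.1e-05). Pck1 was dim in absolute terms, with 58.1% of named genes below it in EPT, yet the other compartments were close to the floor. Pcx, pyruvate carboxylase (2.62), the glucose 6-phosphate carrier Slc37a4 (2.73) and glycerate kinase Glyctk (2.65) were higher, and the fructokinase Khk (0.32) and mitochondrial Pck2 (-0.16) were not called. The batch-blocked fit lost Fbp1 (adjusted p = 0.0667), Pcx (0.051), Slc37a4 (0.0908) and Glyctk (0.0645).

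Of 16 tested genes of hexokinases, glycolysis and lactate, 1 was higher, 2 were lower and 13 were not called, with a median of -0.23. Over all genes tested the shares were 9.53% higher and 6.4% lower. Hk1, hexokinase 1, was at 9.51, 10.05 and 9.30 in EPT, against 11.13 to 12.39 on the other 8 arrays (-1.93 ± 0.31, adjusted p = 0.000837). The EPT arrays lay below all others, and the call was lost in the batch-blocked fit (adjusted p = 0.0807) and with the mean of its probe sets (0.0559). Ldhb, the lactate dehydrogenase subunit common in oxidative tissue, was the higher member at 1.40 ± 0.34. The lactate carrier Slc16a1 was lower by a value close to the threshold (-1.11 ± 0.35, adjusted p = 0.047). It was no longer called when any of 9 arrays was left out (CCD1, CCD2, EPT1, EPT2, EPT3, USM2, USM3, URO1 or URO3, adjusted p = 0.07 to 0.144), in the batch-blocked fit (0.333) or with the mean of its probe sets (-0.62, 0.199). The glycolytic enzymes Pgk1 (-0.56), Aldoa (-0.18) and Pgam1 (-0.13) were bright and not called.

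Amino acid and amine metabolism gave 21 of 32 tested members higher and 1 lower (median 2.08, 11 higher in the batch-blocked fit). Agxt2, a mitochondrial aminotransferase, was at 13.05, 14.39 and 12.14 in EPT, against 7.62 and 8.38 in CCD, 6.20 to 7.75 in USM and 6.10 to 9.06 in URO (5.76 ± 0.61). Prodh2, hydroxyproline dehydrogenase, was at 10.44, 11.51 and 11.84 in EPT, against 6.04 and 6.57 in CCD and 6.01 to 6.38 in USM and URO (5.04 ± 0.34, adjusted p = 2.26e-06). All 8 other arrays of Prodh2 were near the floor. The glycine conjugating enzyme Glyat was higher by 5.24 ± 0.48, but by 1.07 (adjusted p = 0.23) from a probe set without an x, s or a suffix. D-amino acid oxidase, Dao, was higher by 4.17 ± 0.37 and dimethylglycine dehydrogenase, Dmgdh, by 4.08 ± 0.37. Oat, ornithine aminotransferase, was the lower member (-1.65 ± 0.39, adjusted p = 0.0108), and lost its call without EPT1 (0.0521), without EPT2 (0.0527) and in the batch-blocked fit (0.133). Qdpr, a pterin reductase, ranked 59 and was not called (0.70), nor were Got1 (0.52) and Ddc, aromatic amino acid decarboxylase (1.27, adjusted p = 0.0713). Ddc passed without EPT3 (0.0391) and without URO2 (0.0455).

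Conjugating, oxidising and steroid enzymes gave 16 of 30 tested members higher and 4 lower (median 1.39, 11 higher and 0 lower in the batch-blocked fit). The higher members included Ugt2b37, a second glucuronosyltransferase (5.83 ± 0.45), the sulfotransferase Sult1d1 (5.38 ± 0.41), the epoxygenase Cyp2j5 (5.14 ± 0.40) and the glutathione transferase Gsta2 (4.80 ± 0.40). Cyp2j5 was at 11.29, 12.44 and 10.26 in EPT, against 6.01 to 6.31 on all 8 others. Gstt1, another glutathione transferase, went the other way with 6.37, 7.23 and 7.20 in EPT, against 10.85 and 12.25 in CCD, 11.54 to 12.14 in USM and 6.82 to 10.50 in URO (-3.85 ± 0.62). URO2 overlapped with EPT for Gstt1. The other lower members were Cyp7b1, an oxysterol hydroxylase (-2.04), the alcohol dehydrogenase Adh1 (-1.99) and Gsta4 (-1.34).

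None of the 4 lower detoxification members was called in the batch-blocked fit (adjusted p = 0.0795 for Gstt1, 0.0826 for Cyp7b1, 0.274 for Adh1 and 0.346 for Gsta4). Gsta4 was also not called without EPT1 (adjusted p = 0.0836), EPT2 (0.0648) or EPT3 (0.0599). Hsd17b11 (0.27), Hsd17b4 (0.31) and the epoxide hydrolase Ephx2 (1.24, adjusted p = 0.0556) were not called. Ephx2 passed without USM2 (0.0419), without URO2 (0.0213) and with the mean of its probe sets (0.0435), among other settings.

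Genes of secreted plasma proteins were tested for 15 of 26 members on the array, since the rest were dim on nearly all arrays. Of these, 4 were higher and 0 lower (median 0.53), against 9.53% and 6.4% over all genes tested. The batch-blocked count of higher members was also 4. Afp, alpha-fetoprotein, was at 15.73, 15.93 and 14.78 in EPT, against 11.02 and 12.26 in CCD, 7.14 to 10.07 in USM and 11.63 to 12.53 in URO (4.56 ± 0.56), and ranked 164. Spp2, a secreted phosphoprotein, was at 13.47, 14.23 and 13.75 in EPT, against 7.61 to 8.98 on the others (5.71 ± 0.31, adjusted p = 5.76e-07). Ambp, the precursor of alpha-1-microglobulin and bikunin, was higher by 5.42 ± 0.42, and Apom, an apolipoprotein of HDL, by 2.26 ± 0.37. The EPT arrays of all 4 stood above the rest. Alb, albumin, was at 9.26, 8.97 and 9.23 in EPT, against 8.13 to 9.26 on the others, and was not called (0.45 ± 0.31), nor were Apoe (1.05) and Apoh (0.53).

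Of 34 tested transcription factors of the nephron and nuclear receptors, 14 were higher and 6 lower (median 1.22). Among all genes tested 9.53% were higher and 6.4% lower. The counts were 3 and 2 in the batch-blocked fit, 9 higher without EPT2, and 3 lower without EPT3. Hnf4a, a nuclear receptor that drives proximal tubule and liver genes, was at 15.25, 15.20 and 14.80 in EPT, against 10.05 and 9.97 in CCD, 8.58 to 9.22 in USM and 7.29 to 12.03 in URO (5.39 ± 0.72, adjusted p = 0.00023). Its probe set has an s suffix, and from a probe set without an x, s or a suffix the difference was 0.67 (adjusted p = 0.222), so the probe sets of Hnf4a disagreed. Esrrg, an orphan receptor of oxidative metabolism, was at 14.84, 15.06 and 15.02 in EPT, against 12.85 and 13.61 in CCD, 6.09 to 9.68 in USM and 9.83 to 10.89 in URO (4.41 ± 0.57). CCD was the nearest compartment for Esrrg, and the batch-blocked fit gave 2.79 (adjusted p = 0.0784). The vitamin D receptor Vdr was higher by 2.95 ± 0.34, and Pax8, a regulator of the nephron lineage, by 2.09 ± 0.34.

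Ppargc1a, a coactivator of mitochondrial genes, was not called at 1.70 (adjusted p = 0.0731), with 14.11, 13.50 and 12.30 in EPT, against 13.52 and 14.001 in CCD and 9.001 to 12.15 in USM and URO, and passed without URO3 (0.0285). Maf was not called at 1.39 (adjusted p = 0.062), and passed without CCD2 (0.0136) and with the mean of its probe sets (2.03, 0.000749). Tef was not called at 0.96 (0.0502) and passed without CCD1 (0.0407). Foxa1, a forkhead factor of duct and urothelial epithelium, was at 6.06, 6.08 and 6.03 in EPT, against 13.06 and 13.41 in CCD, 10.39 to 11.74 in USM and 14.42 to 16.01 in URO. Its EPT arrays lay at the floor, and its difference was -7.08 ± 0.39 (adjusted p = 5.76e-07). All 4 Id genes, which encode inhibitors of helix-loop-helix factors and respond to BMP signals, were lower with EPT below every other array. Id4 was at 12.90, 12.03 and 12.75 in EPT, against 14.95 and 15.34 in CCD, 16.05 to 16.78 in USM and 14.19 to 14.92 in URO (-2.77 ± 0.33).

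Id1, Id2 and Id3 were lower by -1.24 ± 0.32, -1.61 ± 0.36 and -1.67 ± 0.35. The batch-blocked fit kept the call of Id4 (adjusted p = 0.0279) and lost those of Id1 (0.32), Id2 (0.297) and Id3 (0.316). Id1 was not called without EPT2 (adjusted p = 0.108) or EPT3 (0.0528), nor Id2 without EPT3 (0.056) or from another probe set without an x, s or a suffix (-0.45, 0.673). Pparg, a nuclear receptor, was the remaining lower member at -2.66 ± 0.62, not called without EPT3 (adjusted p = 0.064) or in the batch-blocked fit (0.281).

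Promoter windows (from 250 bases before to 50 after the annotated start, RefSeq, GRCm38.p6) were searched on both strands for letters bound by HNF1 (GTTAATNAT) and HNF4 (CAAAGTCCA), which are known for driving genes of proximal tubule and liver. Of all 32851 promoter windows, 0.8006% held the HNF1 letters and 0.4749% the HNF4 letters. Of 13920 windows of genes tested, 0.4885% held each. Of 1331 windows of genes called higher, 1.503% held HNF1 and 0.9767% HNF4 letters, against 0.114% and 0.2281% of 877 windows of genes called lower. Of 236 windows of genes higher by over 3, 4.237% and 2.966% did. None of the 26 windows of 19 leading genes held either motif, so the 4 shown here belong to the genes with the largest differences among those with a match, chosen after their values were seen. They show how these letters lie in promoters of genes that were higher together. Letters of a match are in capitals, and a match is a description of the sequence and not a binding site.
Agxt2, chr15:10358283-10358582, plus strand, HNF4: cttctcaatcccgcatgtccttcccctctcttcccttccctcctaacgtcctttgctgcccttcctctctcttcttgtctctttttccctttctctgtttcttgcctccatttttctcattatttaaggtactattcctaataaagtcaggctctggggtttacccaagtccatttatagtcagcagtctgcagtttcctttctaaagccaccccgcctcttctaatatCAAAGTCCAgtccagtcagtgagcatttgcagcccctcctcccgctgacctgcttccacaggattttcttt
Sult1d1, chr5:87568957-87569256, minus strand, HNF1: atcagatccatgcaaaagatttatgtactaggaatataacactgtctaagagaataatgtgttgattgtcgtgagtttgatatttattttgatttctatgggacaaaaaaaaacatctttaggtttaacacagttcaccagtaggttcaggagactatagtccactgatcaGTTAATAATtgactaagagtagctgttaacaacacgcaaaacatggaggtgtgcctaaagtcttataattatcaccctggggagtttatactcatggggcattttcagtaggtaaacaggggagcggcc
Cdhr2, chr13:54701213-54701512, plus strand, HNF1: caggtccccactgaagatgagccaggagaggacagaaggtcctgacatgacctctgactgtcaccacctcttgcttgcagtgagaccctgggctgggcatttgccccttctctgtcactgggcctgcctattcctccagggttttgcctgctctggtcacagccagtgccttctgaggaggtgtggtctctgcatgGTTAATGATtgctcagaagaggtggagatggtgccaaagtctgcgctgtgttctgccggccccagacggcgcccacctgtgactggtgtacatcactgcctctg
Prodh2, chr7:30493408-30493707, plus strand, HNF1: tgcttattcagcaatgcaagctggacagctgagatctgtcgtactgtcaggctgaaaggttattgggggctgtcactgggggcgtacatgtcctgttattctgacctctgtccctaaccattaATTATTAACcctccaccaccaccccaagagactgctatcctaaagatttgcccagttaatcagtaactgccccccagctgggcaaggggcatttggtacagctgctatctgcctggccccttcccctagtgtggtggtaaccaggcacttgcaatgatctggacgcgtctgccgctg

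Relative to the start of the window shown, the Agxt2 match lies from -21 to -13 and that of Sult1d1 from -79 to -71. That of Cdhr2 lies from -54 to -46 and that of Prodh2, on the opposite strand, from -127 to -119. Agxt2 has another annotated start, from which the same match lies at -67 to -59, so it is counted in both windows. These 4 genes encode an aminotransferase, a sulfotransferase, a brush border adhesion protein and hydroxyproline dehydrogenase, and were higher in EPT by 5.76, 5.38, 5.18 and 5.04. Slc3a1, Pdzk1 and Afp also had a window with a match, the first pair with the HNF4 letters and Afp with the HNF1 letters.

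Receptors for hormones and growth factors gave 8 of 23 tested members higher and 2 lower (median 0.74). The shares over all genes tested were 9.53% and 6.4%. The counts were 2 and 1 in the batch-blocked fit, and 4 higher without EPT2. Kl, klotho, the co-receptor for FGF23, was at 13.18, 12.93 and 12.18 in EPT, against 8.54 and 9.004 in CCD, 7.56 to 9.36 in USM and 6.89 to 7.62 in URO (4.58 ± 0.40, adjusted p = 1.05e-05). Fgfr4 and Fgfr3, receptors of the FGF family, were higher by 4.004 ± 0.42 and 2.92 ± 0.45, and Fgfr3 had a batch-blocked adjusted p of 0.106. Fgfr2 (-0.19) and Notch2 (0.03), a receptor needed for proximal fate, were bright and not called. The insulin receptor Insr was not called at 1.40 (adjusted p = 0.063) and passed without EPT3 (2.02, 0.015), without USM2 (0.0437) and without URO3 (0.0448). Ptger4, a prostaglandin E receptor, was lower, with 9.86, 6.52 and 7.05 in EPT, against 11.29 and 12.40 in CCD, 13.28 to 14.23 in USM and 10.30 to 11.99 in URO (-4.49 ± 0.62). EPT1 was closest to the other compartments for Ptger4. The endothelin receptor Ednrb was lower by -2.51 ± 0.54, with a batch-blocked adjusted p of 0.0942.

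Claudins and adhesion genes differed in both directions: 5 of 25 tested members were higher and 6 lower (median 0.51, 1 and 1 in the batch-blocked fit). For all genes tested the shares were 9.53% and 6.4%. Cldn2 was at 15.29, 14.39 and 13.86 in EPT, against 8.94 and 10.19 in CCD, 6.66 to 8.30 in USM and 8.45 to 11.46 in URO. Cldn8, a claudin of the collecting duct, was at 5.89, 8.80 and 6.10 in EPT, against 14.04 and 14.63 in CCD, 8.14 to 9.34 in USM and 13.11 to 13.51 in URO (-5.21 ± 0.54). EPT2 overlapped with USM for Cldn8. Cldn10 and Cldn1 were higher by 3.26 ± 0.40 and 2.79 ± 0.47, and Cldn4 was lower by -2.29 ± 0.41. Among cadherins, Cdh6, a cadherin of the proximal nephron precursor, was at 15.09, 14.77 and 13.92 in EPT, against 10.62 and 11.98 in CCD, 9.49 to 10.76 in USM and 7.74 to 12.79 in URO (4.09 ± 0.78). Cdh16, a kidney epithelial cadherin, was at 13.96, 15.13 and 14.82 in EPT, against 15.62 and 14.83 in CCD, 8.85 to 9.40 in USM and 12.21 to 13.74 in URO (2.21 ± 0.39), so it overlapped with CCD. The batch-blocked fit lost Cldn10 (adjusted p = 0.0574), Cldn1 (0.0977), Cldn4 (0.126), Cdh6 (0.259) and Cdh16 (0.134). Epcam (-0.03), Cldn12 (0.55) and Marveld2 (1.18) were not called, and Marveld2 passed without USM1 (adjusted p = 0.0106).

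Genes that mark different stretches of the adult proximal tubule were higher side by side. Of 7 tested genes of the S1 and S2 segments 6 were higher, among them Slc5a2, Slc34a1, Slc4a4, the lysine exchanger Slc7a7 (3.14 ± 0.63) and Gatm, which makes guanidinoacetate (3.02 ± 0.51). The amino acid exchanger Slc7a8 was not called (0.88). Of 6 genes of the S3 segment 5 were higher, and the share over all genes tested was 9.53%. Slc5a1, the glucose cotransporter SGLT1, was at 12.18, 13.57 and 11.19 in EPT, against 8.82 and 8.45 in CCD, 5.93 to 8.33 in USM and 7.19 to 9.36 in URO (4.13 ± 0.62). Slc7a13, an aspartate and glutamate carrier, was at 13.01, 12.30 and 10.44 in EPT, against 6.13 to 9.45 on the others (4.04 ± 0.65). The glutamate carrier Slc1a1 was higher by 4.13 ± 0.43 and Aqp7, an aquaglyceroporin, by 2.31 ± 0.33. The lower S3 gene was Cyp7b1. The batch-blocked counts were 3 for each list, and that fit gave 1.03 for Slc7a7 (adjusted p = 0.511). The adjusted p was 0.137 for Gatm, 0.126 for Slc5a1 and 0.176 for the anion carrier Slc22a13 (2.26).

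Of 7 tested genes that depend on sex hormones in the adult mouse proximal tubule, 1 was higher and 1 lower, Cyp7b1. Over all genes tested 9.53% were higher and 6.4% lower, and so short a list cannot be told apart from those shares. Kap, an abundant androgen-dependent transcript of the adult, was at 10.23, 9.76 and 9.66 in EPT, against 9.25 to 10.71 on the others (-0.20 ± 0.35), with all compartments overlapping. Slc7a12, a carrier of small neutral amino acids, was at 11.03, 11.71 and 8.90 in EPT, against 7.03 to 8.41 on the others (2.83 ± 0.50, batch-blocked adjusted p = 0.0906). Odc1 (-0.47) and Acsm3 (0.38) were not called.

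Genes of earlier nephron stages were read from 2 lists. Of 10 nephron progenitor genes, 1 was higher, close to the 9.53% over all genes, and 0 were lower: Sall1, a zinc finger factor, at 13.23, 13.02 and 12.81 in EPT, against 11.31 and 11.75 in CCD, 7.61 to 8.10 in USM and 9.28 to 12.90 in URO (2.98 ± 0.59, batch-blocked adjusted p = 0.203). URO3 overlapped with EPT for Sall1. Six2, which keeps progenitors undifferentiated, was at 8.81, 9.53 and 10.86 in EPT, against 8.21 to 10.45 on the others (0.33 ± 0.50). Wt1 was not called (1.36, adjusted p = 0.107) and passed without URO3 (0.0226). The progenitor count was 2 higher without EPT2 and 2 without URO3.

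Of 15 genes of the pretubular aggregate and renal vesicle, 5 were higher and 3 lower, against 9.53% and 6.4% over all genes tested. The counts were 3 and 1 without EPT2, and 1 and 1 in the batch-blocked fit. Dll1, a Notch ligand of the renal vesicle, was at 13.24, 13.16 and 13.32 in EPT, against 10.85 and 11.07 in CCD, 8.10 to 9.22 in USM and 9.17 to 12.25 in URO (3.23 ± 0.54). The lower members were the Wnt inhibitor Sfrp2 (-2.29 ± 0.36), Ccnd1, cyclin D1 (-1.504 ± 0.35), and the Wnt effector Lef1 (-1.63 ± 0.49, adjusted p = 0.037). The batch-blocked fit lost Dll1 (adjusted p = 0.122), Sfrp2 (0.0876) and Ccnd1 (0.267), and Ccnd1 was not called without EPT2 (0.0836). The call of Lef1 was lost without CCD2, EPT1, EPT2, EPT3, USM2, URO1 or URO3 (adjusted p = 0.0537 to 0.148), and the batch-blocked fit gave -2.87 (0.0467). Lhx1, a factor of the renal vesicle, was not called at 1.68 and passed without URO3 (2.30, 0.00353).

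For markers of other segments the shares called higher were near the 9.53% over all genes tested. The single higher podocyte gene of 8 tested was Clic5 (1.46 ± 0.44, adjusted p = 0.0395), not called without CCD1, CCD2, EPT1, EPT2, EPT3, USM2 or USM3 (0.0541 to 0.127) or in the batch-blocked fit (0.268). Of 13 loop and distal tubule genes 2 were higher, Pou3f3 (1.67) and Emx1 (1.27), factors of the distal nephron. Pou3f3 was at 14.21, 14.39 and 13.83 in EPT, against 14.44 and 15.41 in CCD, 7.78 to 9.14 in USM and 13.54 to 14.06 in URO, so its EPT level overlapped with CCD and URO. Pou3f3 lost its call without EPT2 (adjusted p = 0.0503), and Emx1 without EPT1 (0.088) or EPT2 (0.0791). In the batch-blocked fit neither was called (adjusted p = 0.358 for Pou3f3 and 0.0988 for Emx1). The loop carrier Slc12a1 was at 8.33, 10.63 and 12.13 in EPT, against 11.62 and 13.28 in CCD, 6.79 to 9.37 in USM and 7.45 to 13.60 in URO (0.11 ± 1.07).

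Collecting duct genes gave 9 of 22 tested members lower and 0 higher, and urothelial genes 8 of 14 lower and 0 higher, with 4 and 2 lower in the batch-blocked fit. Gata3, a duct factor, was at 6.85, 10.02 and 9.31 in EPT, against 14.33 and 13.93 in CCD, 8.75 to 9.19 in USM and 12.71 to 14.65 in URO. The summed linear signal of the collecting duct list was 27487 to 48451 in EPT, against 229590 to 318816 in CCD, 13978 to 23348 in USM and 188691 to 325053 in URO. EPT therefore lay between USM and the duct for that sum. The uroplakin Upk3a was at 8.03, 6.83 and 6.65 in EPT, against 12.36 to 13.92 in URO and 7.27 to 8.75 on the other 5 arrays (batch-blocked adjusted p = 0.0776). The sum of the urothelial list was 6848 to 15214 in EPT, against 32653 to 42346 in CCD, 6067 to 11067 in USM and 62266 to 170468 in URO.

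Smooth muscle genes gave 14 of 17 tested members lower and 0 higher, and 6 lower in the batch-blocked fit. Actg2, a smooth muscle actin, was at 7.01, 6.17 and 7.60 in EPT, against 7.11 and 7.04 in CCD, 14.43 to 14.62 in USM and 8.35 to 11.29 in URO. EPT and CCD overlapped for Actg2 and its batch-blocked adjusted p was 0.0536. The sum of the list was 16984 to 25347 in EPT, against 19632 to 38564 in CCD, 577292 to 754358 in USM and 67910 to 171833 in URO. Interstitial and ureteral mesenchyme genes gave 9 of 20 lower and 0 higher (4 lower in the batch-blocked fit), with a sum of 69667 to 121057 in EPT, against 108050 to 189460 in CCD, 715644 to 770618 in USM and 153059 to 233479 in URO. Tbx18, a factor of ureteral mesenchyme, was at 8.89, 8.23 and 6.71 in EPT, against 15.52 to 16.04 in USM and 7.83 to 12.46 on the other 5 arrays.

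Counts of endothelial, leukocyte and erythroid calls were near the shares over all genes tested, 9.53% higher and 6.4% lower. Endothelial genes gave 1 lower, Flt1 (-1.71), and 0 higher of 14. Flt1 was not called without EPT1, EPT2 or EPT3 (adjusted p = 0.0599 to 0.0983) or in the batch-blocked fit (0.245). With the mean of its probe sets Flt1 was at -0.41 (adjusted p = 0.524). Of 10 leukocyte genes none was called by limma, and none had an unadjusted p under 0.05, and the macrophage receptor Csf1r passed without EPT1 (2.01, adjusted p = 0.0267). Of 8 erythroid genes 1 was higher, Klf1 (1.88, not called without EPT3, adjusted p = 0.0563, or in the batch-blocked fit, 0.313). The sum of the erythroid list was 34588 to 51239 in EPT, against 49213 to 54231 in CCD, 16169 to 20360 in USM and 30984 to 60598 in URO. For that sum EPT lay above USM and overlapped with CCD and URO. The sum of the endothelial list overlapped between EPT and each other compartment, at 8558 to 18903 in EPT, against 7288 to 20642 on the others. The sum of the leukocyte list was 5164 to 11247 in EPT, against 6825 to 12731 in CCD, 3269 to 4583 in USM and 3799 to 9818 in URO. The leukocyte sum of EPT thus overlapped with CCD and URO and lay above USM. The part of other cell types in the EPT results was not tested.

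**Figure D4:**
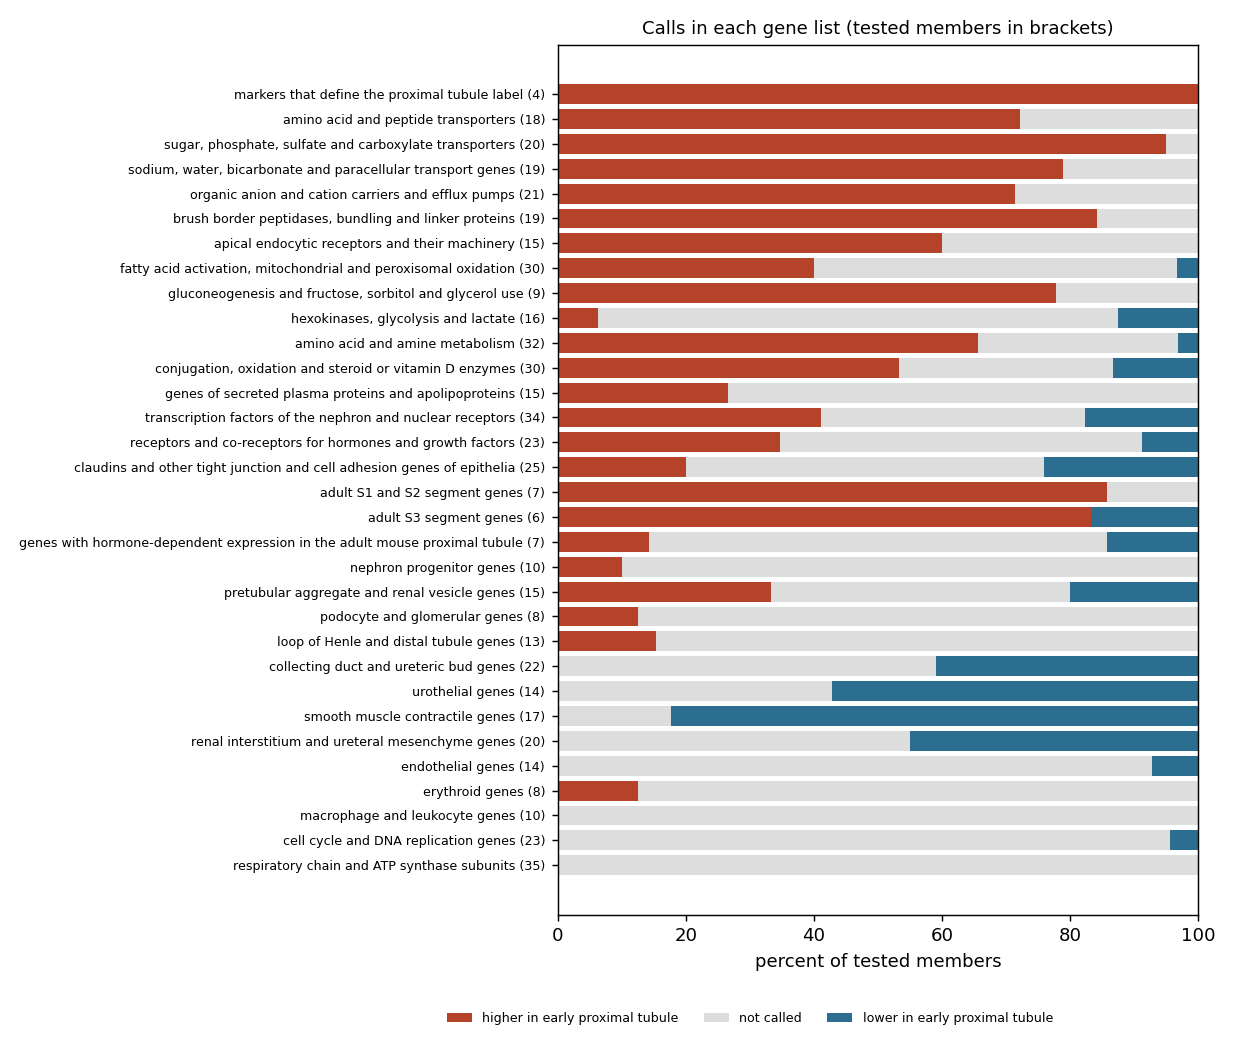
For each of 32 gene lists (rows, with the number of tested members), the percent of tested members called higher in EPT (red), not called (grey) and called lower (blue). The transport and brush border lists are mostly red, the smooth muscle list has 14 of 17 members lower, and the respiratory chain list has no call in 35.

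The reverse trace, tubule genes outside EPT, was read from the 235 genes higher by over 3. The median linear signal of these genes was 83.17%, 120.3% and 88.87% of the EPT mean in EPT1, EPT2 and EPT3. It was 5.117% and 7.026% in CCD1 and CCD2, 1.651% to 1.912% in USM and 5.91%, 2.656% and 7.458% in URO1, URO2 and URO3. Since the rule for these genes used the same contrast, the gap to EPT is a description, and the part of carried-over tubule tissue in the level of CCD2, URO1 and URO3 was not tested. The same arrays carried the brighter signals of Acsm2, Slc2a2 and Mep1b named above or drawn in the heat map of proximal tubule genes.

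**Figure D5:**
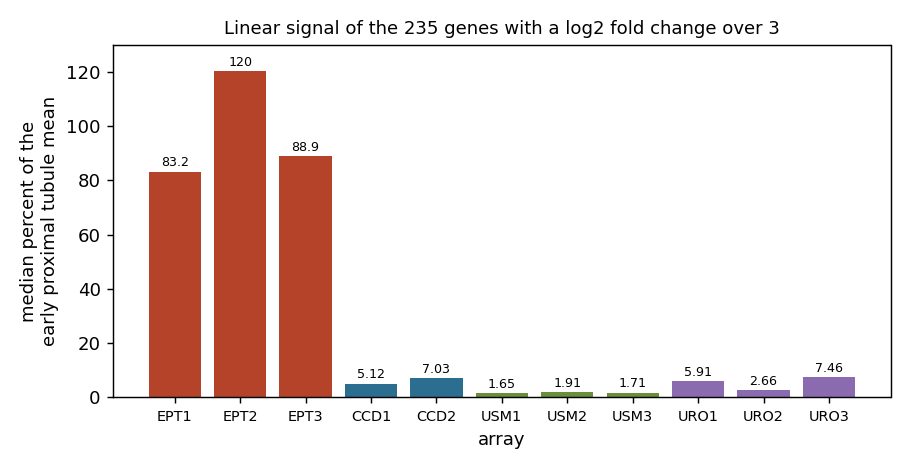
Median over 235 genes of the linear signal on each array, as a percent of the gene's EPT mean (vertical axis from 0). EPT2 is the highest at 120.3, URO3 and CCD2 are the highest outside EPT at 7.458 and 7.026, and the 3 USM arrays lie below 2.

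Genes of cell division and respiration gave few calls. Of 23 tested cell cycle genes 0 were higher and 1 was lower (median -0.22). At an unadjusted p under 0.05 in limma 0 were higher and 4 lower. Over all genes tested 9.53% were called higher and 6.4% lower, so the lower count is near that share. Mki67, a marker of cycling cells, was at 15.09, 14.93 and 15.32 in EPT, against 14.18 and 14.79 in CCD, 14.77 to 15.77 in USM and 14.42 to 15.23 in URO (0.29 ± 0.33). The lower gene was Pcna, the replication clamp, at 13.35, 12.82 and 12.99 in EPT, against 13.37 and 14.65 in CCD, 14.70 to 14.95 in USM and 14.74 to 15.29 in URO (-1.55 ± 0.33, batch-blocked adjusted p = 0.142). Of 35 genes of the respiratory chain and ATP synthase none was called by limma (median -0.01, 1 higher and 0 lower at an unadjusted p under 0.05), and these genes were bright, with a median of 95.6% of named genes below them. Atp5c1 was at -0.32 ± 0.32 here but higher by 2.07 (adjusted p = 0.0425) from a probe set without an x, s or a suffix.

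The leading lower genes beyond Foxa1 and Ptger4 came from muscle, duct and urothelium. Car3, a carbonic anhydrase of muscle and fat, was at 9.35, 8.68 and 7.37 in EPT, against 10.54 and 10.80 in CCD, 16.67 to 16.91 in USM and 12.64 to 14.62 in URO (-5.31 ± 0.47). Cav2, caveolin 2, was at 8.72, 7.997 and 9.54 in EPT, against 12.29 to 14.78 on all others (-4.62 ± 0.44). The EPT arrays of both lay below the rest. Sh3bgrl (-4.13 ± 0.43), Rgs2, a regulator of G protein signals (-3.98 ± 0.44), the T-box factor Tbx3 (-3.72 ± 0.46) and the orphan receptor Gprc5b (-3.72 ± 0.38) completed the 8 lowest among genes with EPT apart from all other arrays, with adjusted p of 3.04e-05 to 0.000123.

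Among the 3 EPT arrays the median range of a gene was 0.81 over the 4548 genes in the top 25% of EPT signal, and 13 genes ranged over more than 3. EPT3 lay farthest from the other EPT arrays for 2159 of these genes, EPT1 for 1293 and EPT2 for 1096. Otud4, a deubiquitinase, had the widest range, with 16.12, 13.58 and 12.03 in EPT1, EPT2 and EPT3, against 12.89 to 16.01 on the others. Hbb-y, an embryonic globin, was at 14.15, 10.88 and 13.29 in EPT, against 12.84 to 14.32 on the others, and EPT2 lay below all of them. Parpbp, Ptprg, Coq10b and Tmem33 followed. None of these 6 was called, although Tmem33 passed without EPT1 (-1.80, adjusted p = 0.0449) and Coq10b with the mean of its probe sets (-1.33, 0.0375).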

How the data were processed

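RNA of 11 pools was amplified in 2 rounds, labelled with biotin and read on 1-colour Affymetrix arrays. The values are the authors' deposited signal intensity per probe set, made with GCOS per the submitters' processing notes (version not given in the sources used here). From the values, each array had been scaled to a common 2% trimmed mean. Of 45101 probe sets 64 were controls, 34945 had 1 gene symbol, 932 several and 9160 none in the platform annotation. Of those with 1 symbol, 34741 matched the RefSeq gene table and 0 symbols changed. Each gene was read from the probe set with the highest mean over all arrays. Detection calls were not used. Precision is limited by how many arrays there are.

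Values were taken as log2(signal + 55), where 55 is the 20th percentile of the table. Genes above their array's median on at least 2 arrays were tested. A single limma fit of the 4 compartments gave EPT minus the mean of the other 3, with Benjamini-Hochberg adjustment over all genes tested (R 4.3.3, limma 3.58.1, Python 3.11.15, pandas 2.3.3, matplotlib 3.10.9). The fit was tested on simulated data. Alternatives were quantile normalization, pseudocounts of 12 and 190, no filter or one at the 75th percentile, the mean of probe sets, probe sets without an x, s or a suffix, robust moderation, label batch as a fixed or random block, and each array left out. Promoter windows are RefSeq's, on GRCm38.p6.

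Named genes were the 14 highest and 8 lowest differences with EPT apart from the other arrays, the 12 brightest genes among those higher and apart, the 10 brightest of all, the 6 widest EPT ranges among bright genes and the 4 defining genes. From each list came up to 5 called members by moderated t, up to 3 bright members not called, and any called against the list's majority. Symbols that are clone names were passed over. The members and lists were chosen with earlier results of these data known.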

Additional observations from a re-analysis of the deposited data

How the results depend on the processing

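The number of calls changed most with label batch as a fixed block and when EPT2 or EPT3 was left out. The median absolute difference of the genes called in the main fit was 1.74 with the block and 1.75 without EPT2, against 1.79. The median standard error was 0.58 and 0.46, against 0.39. With label batch as a fixed block 277 genes were higher and 135 lower, and 58 of the 140 called genes named by the rule were no longer called. Leaving out 1 array at a time gave 716 to 1320 higher and 503 to 922 lower genes. The low ends came without EPT2 (716 and 503), and without EPT3 the counts were 809 and 579. The other settings gave 1766 to 2289 calls in all against 2162, and quantile normalization moved the share of higher calls to 55.4% against 59.8%. None of the 140 called genes named by the rule changed sign under any setting that kept it. Without x, s and a probe sets 117 of them were kept, with the 75th percentile filter 130 and with averaged probe sets 136. Of the 98 not called, 44 changed sign and 26 passed under at least 1 setting, and not every such setting is given above. The 140 were chosen for size and call in the same data, so this contrast with the 98 follows in part from the choice. Averaging probe sets shrank 31 of 136 called differences by over 1.5 times, and the fixed block 4 of 140. Of the 100 brightest genes 32 were among the 100 brightest when probe sets were averaged, and 98 after quantile normalization. The cause of these shifts was not tested. No paired analysis was possible because the sample names repeat numbers within a compartment, and the numbering used here follows accession order and matches no samples across groups. URO shares no batch with EPT, so the block compares them only through USM. Signals near the floor limit the differences of dim genes.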
